A study of Mus musculus with 6 samples.

Results

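The tumour suppressor p53, encoded by Trp53 in the mouse, and 9 genes that it is known to induce were followed in cultured cardiomyocytes of newborn mice. The 10 genes were picked by symbol (Trp53, Mdm2, Ccng1, Bax, Bbc3, Phlda3, Sesn1, Trp53inp1, Zmat3 and Btg2) out of 52550 mouse genes in the count tables. Each symbol matched a single Ensembl gene, and all 10 had enough counts to be tested. The GR-cKO group held 3 libraries of cardiomyocytes from mice with a cardiomyocyte-specific deletion of the glucocorticoid receptor, and the control group held 3 libraries of cardiomyocytes labelled only as controls. In both groups hearts were taken on postnatal day 1, cardiomyocytes were enriched with magnetic beads and grown with 5% horse serum and 10% fetal bovine serum, and serum was withheld for the last 24 hours. The Cre driver, the deleted exon and the number of animals behind a library are not given in the labels.

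p53 is a transcription factor that is made and destroyed continuously. Mdm2 is a ubiquitin ligase that binds p53 and sends it to the proteasome, and since p53 itself induces Mdm2, the pair forms a negative feedback loop. DNA damage and other stresses break this hold, and p53 then raises genes that stop the cell cycle, inhibit growth signalling or open mitochondria for cell death. Because p53 is controlled mostly as a protein, the amount of Trp53 messenger RNA is not a measure of p53 activity, and many of its targets also answer to other transcription factors.

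Levels are given as CPM, gene counts scaled to a common library size with trimmed-mean (TMM) factors. The libraries were made with QuantSeq, which reads a tag near the 3′ end of each transcript, so CPM is not divided by gene length. Each library held 19371508 to 22583596 gene counts, and the 10 genes held between 243 and 5206 counts in a library. Fold changes are GR-cKO over control on the log2 scale, tested with edgeR's quasi-likelihood test and adjusted with the Benjamini-Hochberg method over 14386 genes, with a threshold of 0.05. The labels call the libraries biological replicates without naming separate animals or cultures, so p-values measure only the spread between these libraries. Nr3c1, the gene of the receptor, fell to 46.2, 42.8 and 44.1 CPM in the GR-cKO libraries, against 68.2, 73.9 and 72.4 CPM in the control libraries (log2 fold change -0.69 ± 0.09, SE; edgeR adjusted p = 3.3e-06). A 3′ tag need not lie in the deleted part, and the labels do not say which part that is.

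The p53 genes did not move together. Btg2 and Bbc3 rose in GR-cKO cardiomyocytes and Trp53 fell, while Mdm2, Ccng1, Bax, Phlda3, Sesn1, Trp53inp1 and Zmat3 did not pass the test. Of the 10 genes 2 were higher, where 7.63% of all genes tested were higher, and 1 was lower, where 7.19% were lower. In either direction 14.8% of all genes tested passed. The median log2 fold change of the 10 genes was 0.04, against -0.01 over all genes tested, and 5 of the 10 values lay above 0. For 6 of the 10 genes every library of a group lay on the same side of the other group, with GR-cKO above in Btg2, Bbc3 and Phlda3 and below in Trp53, Ccng1 and Sesn1. Such a separation was seen in 29.9% of all genes tested, with GR-cKO above in 15.2% and below in 14.7%.

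**Figure D1:**
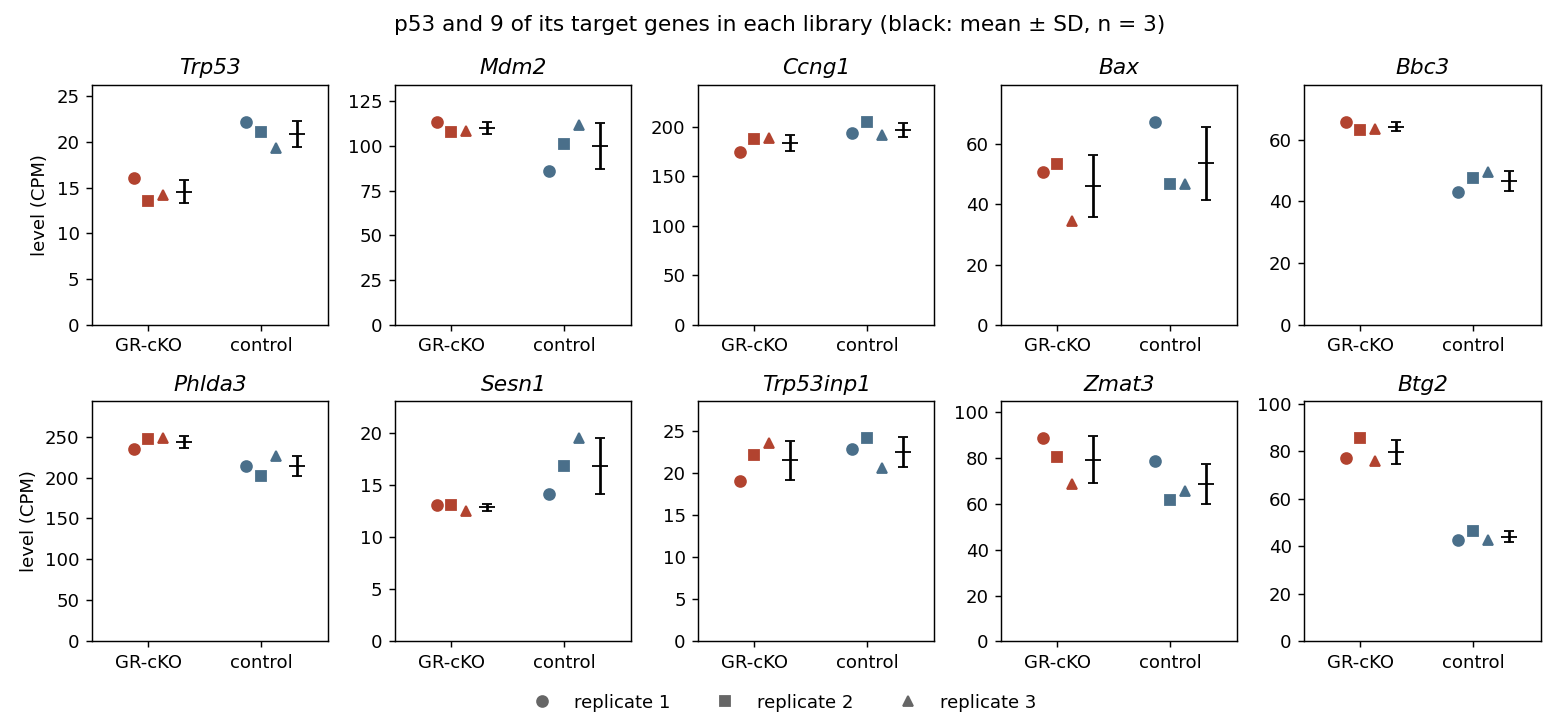
Level in CPM (vertical axis, from 0) of each of the 10 genes in the 3 GR-cKO libraries (red) and the 3 control libraries (blue), with the mean ± SD in black and a marker shape for each replicate number. The GR-cKO libraries lie above every control library for Btg2, Bbc3 and Phlda3, and below every control library for Trp53, Ccng1 and Sesn1.

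Btg2 showed the largest change of the 10 genes. It belongs to the BTG/TOB family of antiproliferative proteins, which recruit the deadenylase complex that shortens the poly(A) tails of messenger RNAs, and it is known both as a p53 target and as an immediate early gene. Btg2 (ENSMUSG00000020423, GRCm38 chromosome 1, 134075170 to 134079120, minus strand) stood at 77.4, 85.6 and 76.1 CPM in the GR-cKO libraries, against 42.8, 46.7 and 42.7 CPM in the control libraries. Every GR-cKO library was well above the highest control library. The means were 79.7 ± 5.18 CPM in GR-cKO and 44.1 ± 2.25 CPM in control (SD, n = 3 each), a 1.81-fold difference (log2 fold change 0.85 ± 0.09, SE; edgeR adjusted p = 1.7e-07). By unadjusted p it was number 131 of 14386 genes, and 8.76% of all genes tested changed more in size. It passed under all 12 processing alternatives, with log2 fold changes of 0.80 to 0.95.

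Bbc3 was the other gene that rose. It encodes PUMA, a BH3-only protein that binds the survival members of the BCL2 family and so frees BAX and BAK to open mitochondria. Bbc3 (ENSMUSG00000002083, chromosome 7, 16308393 to 16318205, plus strand) was at 65.9, 63.1 and 63.6 CPM in GR-cKO, against 42.9, 47.4 and 49.4 CPM in control. The 3 GR-cKO values were close to each other and lay above all control values. Its mean was 64.2 ± 1.5 CPM in GR-cKO and 46.6 ± 3.35 CPM in control (SD, n = 3 each), 1.38-fold higher (log2 fold change 0.46 ± 0.09; edgeR adjusted p = 0.00062), and it passed under all 12 alternatives (0.41 to 0.55).

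Trp53 fell. Trp53 (ENSMUSG00000059552, chromosome 11, 69580359 to 69591873, plus strand) had 16.0, 13.5 and 14.2 CPM in GR-cKO, against 22.2, 21.1 and 19.4 CPM in control. All GR-cKO libraries lay below the lowest control library, and the means were 14.6 ± 1.31 CPM and 20.9 ± 1.45 CPM in GR-cKO and control (SD, n = 3 each). The log2 fold change was -0.52 ± 0.14 (edgeR adjusted p = 0.0097), a control level 1.43 times that of GR-cKO. The call ended when libraries were scaled by the ERCC spike-in RNAs, added in known amounts (-0.42, adjusted p = 0.063), and without GR-cKO replicate 2 (-0.46, adjusted p = 0.058). The sign was kept under all 12 alternatives.

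Promoter sequence is shown for the 3 genes that changed, and for Ccng1, because p53 acts by binding DNA. Of the 3, the targets Btg2 and Bbc3 rose, and Trp53 itself fell. RefSeq (GRCm38.p6) gave start sites for 8 of the 10 genes, 11 windows in all, each of 250 bases before the start; Trp53inp1 and Zmat3 had none. The windows were searched for the p53 decamer, named here without its degenerate letters, a 10-base palindrome that reads the same way on both strands. An exact decamer was found in 5 windows (Trp53, Mdm2, Ccng1, Bax and the second start of Sesn1), and in 7.13% of all 32851 windows. Exact decamers with a spacer of 0 to 13 bases between them, the full p53 site, were in none of the 11 windows and in 0.064% of all windows. Bases outside these windows, introns among them, were not searched. A looser search, chosen after the sequences were seen, took adjoining decamers that keep the central C and G of each and differ from the consensus at no more than 3 other positions. Such a pair was found in 4 windows (Trp53, Ccng1, the first start of Bbc3 and the second start of Sesn1), and in 1.14% of all windows. In the sequences below, written 5′ to 3′ on the gene's strand, capitals mark the adjoining decamers. For Trp53 and Ccng1 only the stretch outside annotated exons is printed.
Btg2, chr1:134079156-134079405, minus strand: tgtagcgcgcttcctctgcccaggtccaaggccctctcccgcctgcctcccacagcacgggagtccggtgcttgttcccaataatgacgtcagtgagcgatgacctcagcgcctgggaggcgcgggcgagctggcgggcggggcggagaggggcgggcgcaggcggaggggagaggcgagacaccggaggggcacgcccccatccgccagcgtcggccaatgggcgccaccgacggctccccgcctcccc
Bbc3, first start, chr7:16309333-16309582, plus strand: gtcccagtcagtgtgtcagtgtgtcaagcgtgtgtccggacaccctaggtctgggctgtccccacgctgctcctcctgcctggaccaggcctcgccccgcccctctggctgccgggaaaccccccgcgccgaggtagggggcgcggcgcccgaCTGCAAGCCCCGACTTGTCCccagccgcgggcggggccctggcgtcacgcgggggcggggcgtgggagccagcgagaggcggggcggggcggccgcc
Trp53, chr11:69580256-69580358, plus strand: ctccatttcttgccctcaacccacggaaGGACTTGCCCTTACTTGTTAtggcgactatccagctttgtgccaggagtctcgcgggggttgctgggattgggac
Ccng1, chr11:40755312-40755536, minus strand: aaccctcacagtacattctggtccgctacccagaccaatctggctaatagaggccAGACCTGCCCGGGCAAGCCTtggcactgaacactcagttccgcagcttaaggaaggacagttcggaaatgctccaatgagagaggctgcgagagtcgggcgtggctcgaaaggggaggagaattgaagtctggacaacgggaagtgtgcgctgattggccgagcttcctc

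The pair in Ccng1 departed from the consensus at 1 position and those in Bbc3, Trp53 and Sesn1 at 3 positions each, the most allowed. A stricter limit would have dropped those at 3 positions, so the share over all windows is no test of these genes. Counted from the start, the Ccng1 pair lay at -195 to -176, the Bbc3 pair at -97 to -78 and the Trp53 pair at -75 to -56. Neither search found a match in the Btg2 window. That window held TGACGTCA, the cyclic AMP response element, at -166 to -159, as did 1.55% of all windows. Like the adjoining pairs, this element was looked for in addition to the first set of motifs. The palindrome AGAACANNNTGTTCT of the glucocorticoid receptor was in none of the 11 windows and in 0.009% of all windows, read on both strands. A match is a run of letters and not a measured binding site. Of the genes with an adjoining pair, Bbc3 was higher, Trp53 was lower, and Ccng1 and Sesn1 did not pass the threshold.

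Mdm2 and Ccng1 are 2 feedback arms of p53. Mdm2 (ENSMUSG00000020184, chromosome 10, 117688875 to 117710758, minus strand) had 114, 108 and 108 CPM in GR-cKO, against 86.2, 101 and 112 CPM in control, and the GR-cKO values lay inside the range of the control values apart from the highest of them. The log2 fold change was 0.14 (95% interval -0.04 to 0.32; edgeR adjusted p = 0.34). Ccng1 (ENSMUSG00000020326, chromosome 11, 40748552 to 40755311, minus strand) encodes cyclin G1, which guides the phosphatase PP2A to Mdm2. It had 175, 187 and 189 CPM in GR-cKO, against 193, 205 and 192 CPM in control. Each GR-cKO library lay below the control libraries, but by little (log2 fold change -0.10, 95% interval -0.25 to 0.04; adjusted p = 0.38).

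Bax (ENSMUSG00000003873, chromosome 7, 45461697 to 45466898, minus strand), whose product forms the pore in the outer mitochondrial membrane during apoptosis, varied more between libraries of a group than between the groups. It had 50.8, 53.3 and 34.4 CPM in GR-cKO, against 67.6, 46.7 and 46.6 CPM in control. The groups overlapped, with GR-cKO replicate 3 low and control replicate 1 high. The log2 fold change was -0.21 (95% interval -0.51 to 0.08; edgeR adjusted p = 0.37), and it shrank to -0.04 without GR-cKO replicate 3 and -0.01 without control replicate 1. Its standard deviation within groups was 22.4% of the mean, where the median of 3955 genes of similar level was 7.99% and 99.8% of them varied less.

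Neither gene that restrains growth signalling passed, and their values had opposite signs. Phlda3 (ENSMUSG00000041801, chromosome 1, 135766119 to 135769136, plus strand), a pleckstrin-homology protein that competes with AKT for membrane lipids, was the most abundant of the 10 at 235, 247 and 248 CPM in GR-cKO, against 214, 202 and 226 CPM in control. The groups did not overlap, but the difference was small and missed the threshold (log2 fold change 0.19 ± 0.07; edgeR adjusted p = 0.071). It passed with DESeq2 (0.19, adjusted p = 0.033) and with ERCC scaling (0.28, adjusted p = 0.048). Sesn1 (ENSMUSG00000038332, chromosome 10, 41809935 to 41908424, plus strand), a sestrin that lowers mTORC1 activity when amino acids are short, was the least abundant at 13.1, 13.1 and 12.5 CPM in GR-cKO, against 14.2, 16.9 and 19.6 CPM in control. GR-cKO was below control in every library, with a log2 fold change of -0.39 ± 0.15 (adjusted p = 0.094). Without control replicate 1 it passed (-0.50, adjusted p = 0.042).

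Zmat3 and Trp53inp1 did not pass either. Zmat3 (ENSMUSG00000027663, chromosome 3, 32334792 to 32366014, minus strand), a zinc-finger protein that binds RNA and steers splicing, had 88.8, 80.7 and 68.8 CPM in GR-cKO, against 78.6, 61.9 and 65.5 CPM in control. The ranges overlapped and the log2 fold change was 0.21 ± 0.10 (edgeR adjusted p = 0.19). It passed without GR-cKO replicate 3 (0.31, adjusted p = 0.043) and without control replicate 1 (0.32, adjusted p = 0.043). Trp53inp1 (ENSMUSG00000028211, chromosome 4, 11156431 to 11174379, plus strand), a nuclear and autophagosomal protein that promotes p53-dependent death and autophagy, had 18.98, 22.1 and 23.5 CPM in GR-cKO, against 22.8, 24.1 and 20.6 CPM in control. Its groups overlapped, its log2 fold change was -0.07 (95% interval -0.33 to 0.20; adjusted p = 0.81), and its sign turned with ERCC scaling (0.03) and without GR-cKO replicate 1 (0.02).

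**Figure D2:**
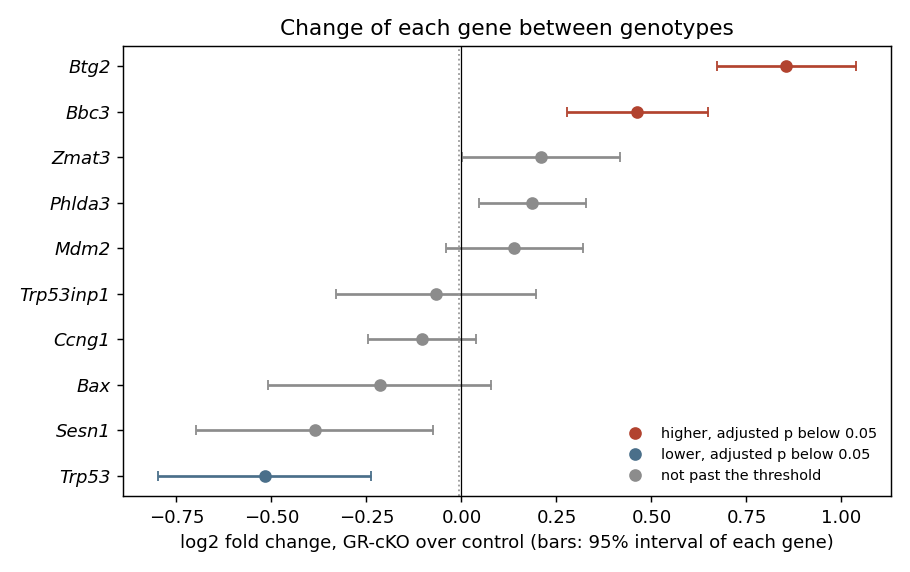
Log2 fold change of GR-cKO over control (horizontal axis) for each of the 10 genes, ordered from highest to lowest, with the 95% interval of each gene from the edgeR fit. Red and blue mark genes higher and lower at an adjusted p below 0.05, grey those that did not pass, and the dotted line is the median of all genes tested. Btg2 (0.85) and Bbc3 (0.46) lie to the right and Trp53 (-0.52) to the left, and the other 7 genes lie between -0.39 and 0.21.

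In order of level the genes ran from Phlda3, Ccng1 and Mdm2 at 243, 183 and 110 CPM in GR-cKO, through Btg2, Zmat3, Bbc3 and Bax between 79.7 and 46.2 CPM, to Trp53inp1, Trp53 and Sesn1 at 21.5, 14.6 and 12.9 CPM. Btg2 and Zmat3 were neighbours in this order whose means, 79.7 ± 5.18 and 79.4 ± 10.1 CPM, differed by less than their spread (SD, n = 3). In control the order was the same but for the middle, where Btg2, at 44.1 CPM, came seventh, below Zmat3, Bax and Bbc3.

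Of 40 further p53 targets, all with enough counts, 7 (17.5%) were higher, where 7.63% of all genes tested were, and 2 (5%) were lower, where 7.19% were. The median log2 fold change of the 40 genes was 0.07, against -0.01 over all genes tested, and whether the list stands apart from other genes was not tested. Cdkn1a, which encodes the cell cycle inhibitor p21, rose to 290, 280 and 253 CPM in GR-cKO, against 198, 186 and 186 CPM in control (log2 fold change 0.53 ± 0.07; edgeR adjusted p = 6.3e-06). Gdf15, a stress hormone, had 81.8, 73.3 and 55.1 CPM in GR-cKO and 35.8, 25.2 and 31.2 CPM in control (1.19 ± 0.13), and Ddit4, an inhibitor of mTORC1 also induced by hypoxia, averaged 72.1 ± 5.72 and 48.6 ± 5.83 CPM in GR-cKO and control (0.57 ± 0.10). Sfn, the 14-3-3 sigma protein that holds cells in G2, was scarcer, at 8.65 ± 1.61 and 2.81 ± 0.555 CPM (1.62 ± 0.25; SD, n = 3 each). Named after their values were seen, the remaining risers were Plk2, Trp53i11 and Kank3, with log2 fold changes of 0.38, 0.88 and 0.98, and the genes that fell were Gtse1 (-0.64), a G2 protein that restrains p53, and Rprm (-1.22), whose groups overlapped. The number lower was 1 without GR-cKO replicate 1, GR-cKO replicate 3 or control replicate 1.

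The share of upstream regulators that passed as higher was near that of all genes. Of 26 genes for kinases, ligases and cofactors of p53, 24 had enough counts, 2 (8.33%) were higher, where 7.63% of all genes tested were, and none was lower with edgeR or DESeq2 (3 lower at an unadjusted p below 0.05), and the median was 0.03. Trp53bp1, a repair protein that binds p53, was at 40.8, 41.4 and 34.9 CPM in GR-cKO, against 26.4, 34.7 and 29.6 CPM in control (log2 fold change 0.37 ± 0.11; edgeR adjusted p = 0.031), and Ppp1r13l, the p53 inhibitor iASPP, had a log2 fold change of 0.42 ± 0.13 (adjusted p = 0.035). No regulator passed without GR-cKO replicate 1, GR-cKO replicate 2 or control replicate 1, and 1 passed without control replicate 2 or 3. Among the relatives of p53, Trp73 had no count in any library, which allows up to 0.155 CPM at 3 counts, and Trp63 was at 0.296 ± 0.138 CPM in GR-cKO and 0.517 ± 0.28 CPM in control, too few to test.

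Around Bax and Bbc3, the BCL2 family and caspases held changes in both directions. Of 22 genes 20 could be tested, 2 (10%) were higher and 2 (10%) lower, where 7.63% and 7.19% of all genes tested were higher and lower, with a median of -0.04. The survival gene Bcl2 rose to 35.9, 35.3 and 37.2 CPM in GR-cKO, against 27.0, 26.2 and 29.4 CPM in control (log2 fold change 0.39 ± 0.10; edgeR adjusted p = 0.012), and the BH3-only gene Bik was also higher (0.39 ± 0.11, adjusted p = 0.020). The BAX relative Bok was lower, at 42.6 ± 3.25 CPM in GR-cKO and 52.5 ± 5.8 CPM in control (SD, n = 3 each; log2 fold change -0.30 ± 0.10, edgeR adjusted p = 0.047). With ERCC scaling no gene of the list was lower, nor without GR-cKO replicate 1, 2 or 3 or control replicate 1 or 3. The number higher was 1 without GR-cKO replicate 2, control replicate 2 or control replicate 3, and 3 without control replicate 1.

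Paralogues of the 10 genes were measured for comparison. Of 14 paralogues 11 could be tested, 1 (9.09%) was higher, where 7.63% of all genes tested were, and none was lower with edgeR or DESeq2 (1 lower at an unadjusted p below 0.05). Sesn2, a sestrin known as a target of both p53 and ATF4, was at 19.3, 22.5 and 18.8 CPM in GR-cKO, against 15.2, 15.3 and 14.5 CPM in control (log2 fold change 0.43 ± 0.13; edgeR adjusted p = 0.031), so that it was higher where the value of Sesn1 was -0.39; the difference between these genes was not tested. It did not pass without GR-cKO replicate 1 or 2 or without any control replicate.

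Genes that p53 lowers indirectly, through p21 and the DREAM repressor complex, were lower. Of 12 such genes, which are also genes of cell division and were listed with the fall of that programme in these libraries already known, 11 (91.7%) fell, where 7.19% of all genes tested were lower, and none rose with edgeR or DESeq2 (none higher at an unadjusted p below 0.05), with a median of -0.91. The mitotic kinase gene Cdk1 had 116, 103 and 119 CPM in GR-cKO, against 203, 219 and 223 CPM in control (log2 fold change -0.93 ± 0.07; edgeR adjusted p = 2.6e-09). Birc5, or survivin, fell to 46.7 ± 6.39 CPM in GR-cKO against 92.3 ± 5.27 CPM in control, the mitotic kinase gene Plk1 had a log2 fold change of -0.79, and the cytokinesis motor gene Kif23 of -0.88. Cdc25c, at 2.92 ± 1.59 CPM in GR-cKO and 5.5 ± 0.459 CPM in control, was the gene that did not pass.

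**Figure D3:**
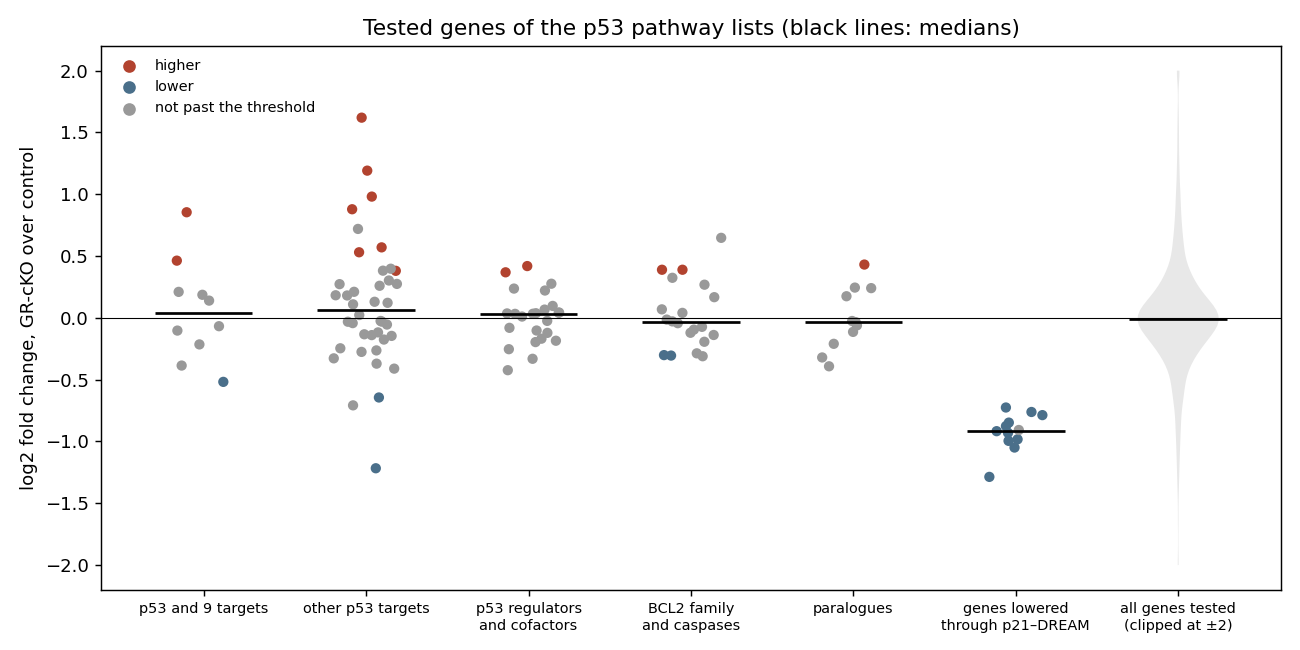
Log2 fold change of GR-cKO over control (vertical axis) for every tested gene of the 10-gene set and of 5 related lists, with black lines at the medians and the distribution of all genes tested in grey at the right, clipped at 2 in size. Red genes were higher, blue genes lower and grey genes did not pass. Medians lie between -0.04 and 0.07 except for the genes lowered through p21 and DREAM, at -0.91. These are also genes of cell division, listed with the fall of that programme in these libraries already known.

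The genes whose levels followed Btg2 most closely over the 6 libraries, by Pearson correlation of log2(CPM + 1) among 9864 genes of at least 5 CPM, were the translation repressor gene Eif4ebp1, the mitochondrial insertase gene Oxa1l and the collagen gene Col15a1, with r of 0.997, 0.996 and 0.995. An r does not measure the size of a change. The log2 fold changes of these genes were 0.53, 0.13 and 1.02, and Oxa1l did not pass (edgeR adjusted p = 0.39). The genes closest to Trp53 were Akap12, Purb and Col8a1, with r of 0.997, 0.996 and 0.995. These 6 points fall into the 2 genotypes, and 354 genes had an r above 0.95 with Btg2 and 156 with Trp53, so the ranking among genes at this r is a description of these libraries only.

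Several features of the libraries moved with genotype, and their part in the values above was not tested. Cardiomyocyte markers were abundant in all libraries (9 of 12 higher and 1 lower, with summed levels of 54793 to 56136 CPM in GR-cKO and 43369 to 44657 CPM in control). Beside these and the marker counts that follow, 7.63% of all genes tested were higher and 7.19% lower. A summed level is weighted toward the most abundant markers. The 10 fibroblast markers (5 higher, 1 lower) summed to 4756 to 4875 CPM in GR-cKO and 3646 to 3844 CPM in control, the 10 endothelial markers (7 higher, 2 lower) to 1322 to 1416 CPM and 1083 to 1120 CPM. The 8 smooth muscle and pericyte markers (5 higher) summed to 4414 to 4636 CPM and 3725 to 3837 CPM. Most of that sum was Acta2, at 3835 ± 116 CPM in GR-cKO and 3295 ± 54.8 CPM in control. In that list 2 markers, Myh11 and Tagln, were lower at an unadjusted edgeR p below 0.05 (log2 fold changes -0.60 and -0.23). The 10 leukocyte markers (6 tested, 4 higher) summed to 37.1 to 59.5 CPM in GR-cKO and 14.3 to 18.9 CPM in control, the 7 epicardial markers (2 higher, 2 lower) to 94.98 to 114 CPM and 101 to 106 CPM, and the 5 erythroid markers (2 tested, none past the threshold with edgeR, 1 higher at an unadjusted p below 0.05) to 3.52 to 5.0 CPM and 1.31 to 3.02 CPM. Lyz2 made up most of the leukocyte sum, at 40.6 ± 9.66 CPM in GR-cKO and 12.9 ± 2.25 CPM in control. Among the epicardial markers Krt19 and Msln were higher (log2 fold changes 2.29 and 1.13) and Tbx18 and Upk3b lower (-0.55 and -1.17). Xist, made from the inactive X chromosome, averaged 0.0332 ± 0.0575 CPM in GR-cKO and 279 ± 12.1 CPM in control. The Y-linked gene Ddx3y was found in both groups, at 89.3 ± 4.73 CPM in GR-cKO and 19.8 ± 1.5 CPM in control (SD, n = 3 each), and the Y-linked genes Uty, Kdm5d and Eif2s3y were likewise higher in GR-cKO and above 0 in every control library. The makeup of the libraries by sex thus differed between the groups, and sex and genotype cannot be told apart. No marker was at 0 in every library. None of the 10 genes lies on a sex chromosome. In RNA from mixed cells, fewer cells of a type and less RNA per cell cannot be told apart either.

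**Figure D4:**
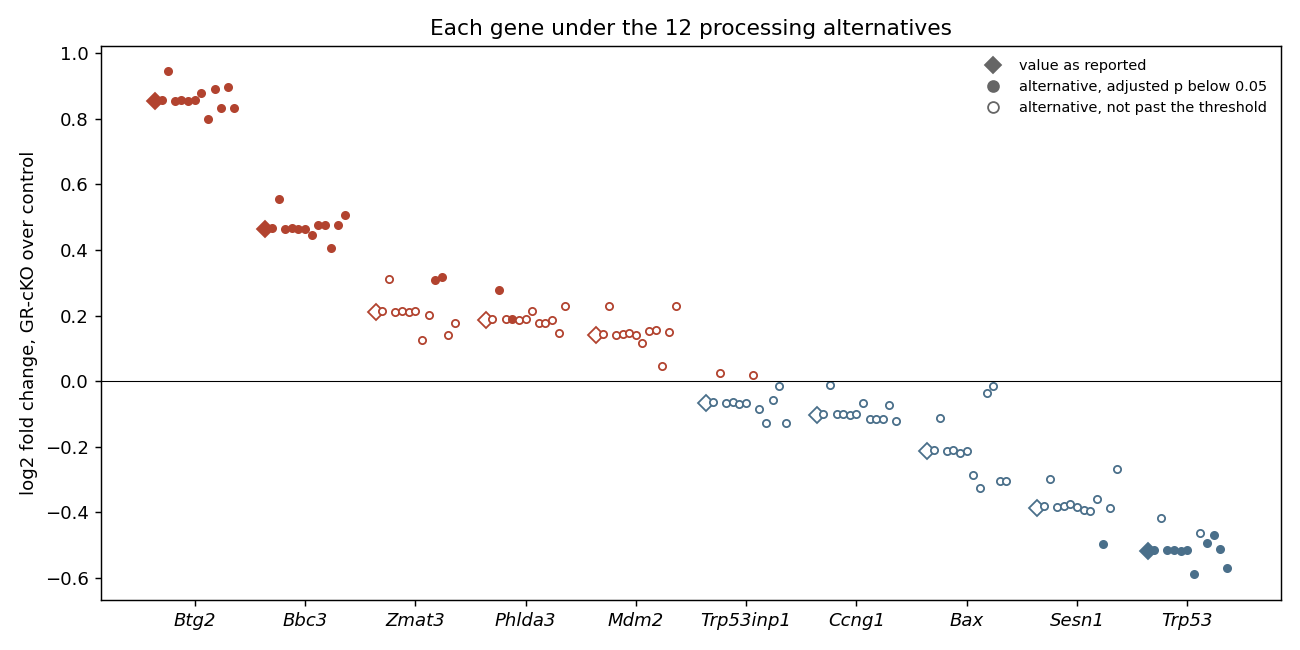
Log2 fold change of GR-cKO over control (vertical axis) of each of the 10 genes as reported (diamonds) and under the 12 alternatives (circles), which from left to right are the other scalings, filter, test, replicate block and gene set and then the omission of each library. Red values lie above 0 and blue below, and filled symbols have an adjusted p below 0.05. Btg2 and Bbc3 stay filled throughout, Trp53 loses the call under 2 alternatives, and Trp53inp1 crosses 0 under 2 alternatives.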

How the data were processed

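Messenger RNA was counted at 3′ ends (QuantSeq forward libraries from 100 ng of total RNA) in 3 GR-cKO and 3 control libraries. The authors' deposited values are unnormalized whole-number counts, 1 per gene and library. Per the submitters' processing notes, cutadapt 1.16, STAR 2.5.4a, featureCounts 1.6.2 and DESeq2 1.18.1 were among the tools and GRCm38 was the build; how featureCounts treated strand and multiply mapping reads was not given. The 92 ERCC and 7 SIRV spike-in rows, 1.98% to 2.36% of all counts, stayed out of library sizes and tests. Symbols came from GENCODE M21 for 52403 of 52550 identifiers. In that annotation only Bax shares exon bases with another gene, Gm45808, and Trp53 has a processed pseudogene; both had no counts.

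The test was edgeR 4.0.16 (quasi-likelihood, R 4.3.3) with TMM factors (0.980 to 1.024) and the default filter on low counts, adjusted over all 14386 genes tested. It was tested on simulated data. DESeq2 1.42.0 was an alternative, as were RLE and ERCC scaling, no filter, a replicate block, omission of chromosomes X and Y, and omission of each library. Each standard error is the size of the log2 fold change over the root of F. The 10 genes and the lists were chosen with earlier results of these data known. Named from each list were up to 4 genes of smallest p past the threshold, plus others said to be named later. Replicate libraries were not duplicates of each other (median chi-square per gene of 2.47 to 3.71). Floors cover counting error only. No reads were analysed here. The values of 1 gene that the naming rule selects are not reported here.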

Additional observations from a re-analysis of the deposited data

How the results depend on the processing

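Of the 10 genes, Btg2 and Bbc3 kept their calls under all 12 alternatives and Mdm2, Ccng1 and Bax stayed below the threshold under all 12. Trp53 lost its call under 2. Trp53inp1 changed sign with ERCC scaling (0.025) and, of the omissions of a library (-0.13 to 0.019), only without GR-cKO replicate 1. With ERCC scaling, which moved the median of all genes by 0.09, 522 of all genes were lower and 1355 higher, against 1035 and 1097 with TMM factors; no gene of the 10, 1 further p53 target and no gene of the BCL2 list was lower. With RLE scaling 1 gene of the BCL2 list was lower. Leaving out each library gave 0 to 2 of the 10 genes lower, 2 to 3 higher, 1 to 2 further targets lower, 0 to 2 regulators higher, 1 to 3 genes of the BCL2 list higher and 0 to 2 lower, and 0 to 1 paralogues higher. Fewer of all genes passed in these fits too, with 842 to 1002 higher and 730 to 905 lower. The counts of cell division genes lowered through p21 and DREAM stayed at 11 to 12. The deviations of same-numbered libraries from their group means correlated at -0.01, -0.03 and 0.12. Those of differently numbered libraries of the 2 groups correlated at -0.17 to 0.21. The labels do not say whether a number pairs libraries, and so few values cannot settle it. With the replicate block 2353 genes passed, and 2 of the 10 genes were higher and 1 lower. The causes were not tested.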

Other observations

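Bax was looked at further because of its wide spread within groups. Among 5645 genes of at least 25 CPM, the leading axis of the deviations from the group means held 40.8% of their variance, and the second axis held 27.75%. GR-cKO replicates 1, 2 and 3 scored 0.119, 0.395 and -0.515 on it, and control replicates 1, 2 and 3 scored 0.565, -0.074 and -0.490. Bax deviated by 0.161, 0.228 and -0.389 in the GR-cKO replicates and by 0.350, -0.173 and -0.176 in the control replicates on the log2 scale, an r of 0.94 with the axis over these 6 points. Bax was among the genes from which the axis was drawn, and how many genes had as high an r with it was not counted. Of 5644 other genes, 127 had an r above 0.95 with the deviations of Bax and 100 an r below -0.95. Zmat3 had an r of 0.79, Mdm2 of -0.71 and Bbc3 of -0.70 with the axis, and Trp53inp1 of -0.02. The r with the axis was -0.64 for Sesn1, 0.42 for Trp53, 0.38 for Btg2, -0.35 for Phlda3 and -0.16 for Ccng1. Each r rests on 6 deviations from which 2 group means were removed, so these values describe the libraries and were not tested. What the axis stands for was not tested either.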
